A study of Mus musculus with 7 samples.

Results

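The integrated stress response and the unfolded protein response were followed through 10 genes in 7 single mouse embryos. The genes were taken by symbol from the deposited count table, and all 10 were found among its 26586 symbols. They are the transcription factor genes Atf4, Ddit3, Atf5 and Xbp1, the amino acid synthesis gene Asns, and Hspa5, Hsp90b1, Calr, Pdia4 and Herpud1, whose products fold or clear proteins at the endoplasmic reticulum (ER). The embryos were morulae of the C57BL/6 background, untreated, flushed from oviduct or uterus at 3 days post coitum. Both parents carried 1 mutant copy of L13a (Rpl13a, a protein of the large ribosomal subunit). The labels give no genotype, sex or litter for any embryo, so the 7 form 1 group with no control and no embryo was assigned a genotype.

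Both responses begin with stress sensors. Kinases that sense unfolded ER proteins, missing amino acids, missing haem or viral RNA phosphorylate eIF2, which lowers general translation while the mRNA of the transcription factor ATF4 is translated more, and ATF4 raises genes of amino acid supply. At the ER, IRE1 splices the Xbp1 mRNA and ATF6 is cleaved, and the resulting factors raise chaperone genes. A gene-level count cannot show the spliced share of Xbp1 or the translation of Atf4. In whole embryos, fewer expressing cells and less RNA per cell cannot be told apart.

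The libraries were uneven, and this touches every value that follows. Total counts ran from 139619 in embryo 6 to 33123742 in embryo 4, a 237-fold range, and 1749 to 12064 genes had a count. A count of 0 allows up to 21.5 CPM (counts divided by the library's total and put on a common scale) in embryo 6, 4.13 CPM in embryo 3 and 0.0906 CPM in embryo 4, each the worth of 3 counts and for counting error only. SMART-Seq libraries carry no molecular identifiers, so the 95% Poisson intervals given below also cover counting error only. Markers of the morula and its lineages were detected unevenly. All 14 markers on the list had a count in embryo 4, where they summed to 6130 CPM, 9 of 14 in embryo 2, and 1 to 6 of 14 in the others, where Nanog and Cdx2 were at 0, as they also were in embryo 2. Oocyte transcripts summed to 14.0 CPM in embryo 4 and 606 CPM in embryo 5, against 3825 to 15490 CPM in the other 5. Markers of oviduct and uterine epithelium summed to 0 to 6289 CPM, highest in embryo 6, and stroma and muscle markers to 0 to 4348 CPM, again highest in embryo 6. Blood and immune markers reached 444 CPM in embryo 6 and at most 4.37 CPM elsewhere, and cumulus and granulosa markers at most 12.0 CPM. In embryo 6 the oviduct and uterine sum came from 4 of 12 markers. The stroma and muscle sum and the blood and immune sum there came from 2 of 9 markers each.

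Of the 10 genes, 5 hold letters of known stress response motifs before their start, and their sequences are shown so that these motifs can be seen in place. They are the 250 bases before the RefSeq start (GRCm38.p6), 5′ to 3′ along the gene's strand, with motif matches in capitals.
Hspa5, chr2:34771840-34772089, plus strand: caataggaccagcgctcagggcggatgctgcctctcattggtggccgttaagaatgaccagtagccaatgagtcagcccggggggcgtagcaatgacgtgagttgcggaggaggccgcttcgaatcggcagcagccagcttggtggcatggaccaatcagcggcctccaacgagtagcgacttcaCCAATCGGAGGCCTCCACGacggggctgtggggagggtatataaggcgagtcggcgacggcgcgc
Hsp90b1, chr10:86705445-86705694, minus strand: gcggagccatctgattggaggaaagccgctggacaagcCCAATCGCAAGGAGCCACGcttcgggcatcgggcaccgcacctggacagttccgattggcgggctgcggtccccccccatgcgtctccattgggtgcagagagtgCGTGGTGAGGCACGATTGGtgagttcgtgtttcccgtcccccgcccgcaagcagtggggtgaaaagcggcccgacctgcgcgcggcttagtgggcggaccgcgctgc
Calr, chr8:84846932-84847181, minus strand: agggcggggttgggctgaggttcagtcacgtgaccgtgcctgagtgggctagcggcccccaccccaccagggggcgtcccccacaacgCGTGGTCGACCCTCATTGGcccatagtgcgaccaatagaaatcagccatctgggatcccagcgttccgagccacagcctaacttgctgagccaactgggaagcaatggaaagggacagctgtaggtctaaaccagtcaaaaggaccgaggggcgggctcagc
Herpud1, chr8:94386179-94386428, plus strand: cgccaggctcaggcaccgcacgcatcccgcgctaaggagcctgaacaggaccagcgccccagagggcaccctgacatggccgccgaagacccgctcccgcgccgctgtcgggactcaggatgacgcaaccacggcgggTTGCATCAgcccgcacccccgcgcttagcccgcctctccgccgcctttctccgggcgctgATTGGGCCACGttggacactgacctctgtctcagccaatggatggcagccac
Asns, chr6:7693210-7693459, minus strand: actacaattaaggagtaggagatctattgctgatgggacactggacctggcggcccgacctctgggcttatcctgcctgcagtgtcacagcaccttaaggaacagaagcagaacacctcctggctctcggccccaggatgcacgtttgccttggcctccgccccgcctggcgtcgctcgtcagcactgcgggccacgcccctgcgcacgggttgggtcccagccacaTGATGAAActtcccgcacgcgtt

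The search covered 4 motifs on both strands of 32851 such windows, among which all 10 genes had at least 1. The ER stress response element (ERSE, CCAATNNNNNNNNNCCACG), known to bind ATF6 with NF-Y, matched once in Hspa5, once in Calr and at 2 places in Hsp90b1, against 0.113% of all windows. ERSE-II (ATTGG and CCACG with any 1 base between them), a form added to the search because it is known from Herpud1, matched in Herpud1 and in 0.0304% of all windows. The composite element of C/EBP and ATF factors (CARE, searched as TGATGNAA) matched in Asns, from 23 to 16 bases before the start, and in Herpud1, against 3.45% of all windows. The UPR element (UPRE, TGACGTGG), found in 0.563% of all windows, matched in none of the 10. The matches of different motifs did not overlap each other. A match describes the letters of the window and is not a measurement of binding. The motifs and the genes were both picked as known parts of these responses. The shares of all windows are therefore a description and not a test of enrichment.

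**Figure D1:**
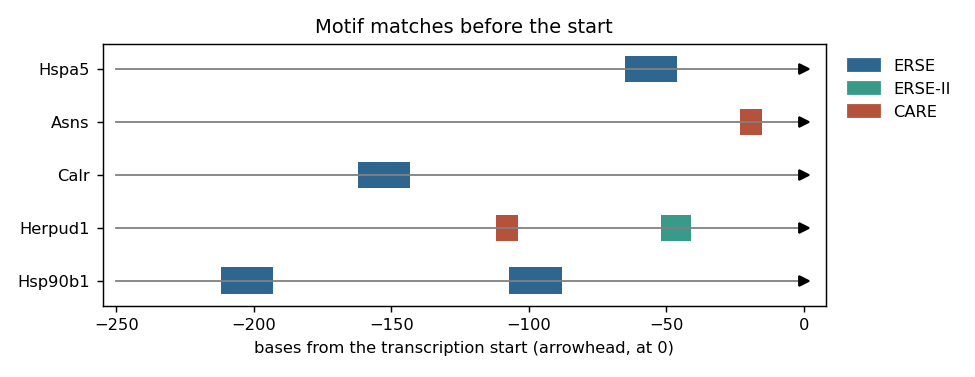
Motif matches in the 250 bases before the RefSeq start of the 5 genes with a match; the x axis gives bases from the start, and coloured boxes are matches on either strand. The 4 ERSE boxes lie in Hspa5, Calr and Hsp90b1, and the CARE box of Asns is the match nearest to a start.

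The 4 regulators were counted in different but overlapping sets of embryos, and all 4 had a count in embryo 4. Atf4, on chromosome 15 (GRCm38, 80255184 to 80257541, plus strand, ENSMUSG00000042406.8), encodes the main transcription factor of the integrated stress response. It stood at 160 CPM in embryo 1 (95% interval 138 to 185), 224 CPM in embryo 2, 111 CPM in embryo 4 and 38.2 CPM in embryo 7, from 183, 3691, 3688 and 654 counts. It had no count in embryos 3, 5 and 6. Among the 4 embryos with Atf4 the highest was 5.87-fold above the lowest. In the embryos without a count, 3 counts would be 4.13 CPM in embryo 3, 1.09 CPM in embryo 5 and 21.5 CPM in embryo 6, all below those 4 levels.

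Ddit3 encodes CHOP, a transcription factor that ATF4 induces and that is known for promoting cell death under lasting stress. It lies on chromosome 10 (127290774 to 127296288, plus strand, ENSMUSG00000025408.15). It reached 2800.5 CPM in embryo 6 (95% interval 2530 to 3092), from 391 counts. It stood at 37.6 CPM in embryo 2 from 618 counts and 13.7 CPM in embryo 4 from 453 counts, and had no count in embryos 1, 3, 5 and 7. Embryo 6 was thus 205-fold above embryo 4, and only 1.9% of the genes counted in embryo 6 stood above Ddit3 in CPM per kilobase of merged exon. That library is the shallowest, and none of Atf4, Atf5, Xbp1 and Asns had a count in it. Some markers of other tissues were also counted in it. They were 4 of 12 for oviduct and uterus, 2 of 9 for stroma and muscle, and 2 of 9 for blood and immune cells. Among them were the matrix gene Dcn at 4240 CPM from 592 counts and the uterine genes Sprr2f at 1948 CPM and Lcn2 at 1490 CPM. The macrophage receptor Csf1r stood at 129 CPM. The part of these markers in the Ddit3 level was not tested. Exons of Ddit3 share 68 bases with Mars, the methionyl-tRNA synthetase gene on the opposite strand, and no source used here says whether the counting used strand. Mars had 0 counts in embryo 6, 131 in embryo 2 and 7978 in embryo 4, and whether reads were shared was not tested.

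Atf5, on chromosome 7 (44812256 to 44816658, minus strand, ENSMUSG00000038539.15), encodes a factor related to ATF4 that is known from the mitochondrial stress response. It was highest in embryo 5, at 31.8 CPM (95% interval 25.5 to 39.2) from 88 counts. It stood at 1.34 CPM in embryo 7 from 23 counts and 0.513 CPM in embryo 4 from 17 counts, with none in the other 4 embryos. Embryo 5 had no count of Atf4, Ddit3 or Xbp1. Atf5 shares 82 exonic bases with Nup62, a nuclear pore gene on the opposite strand, which had 0 counts in embryo 5, 3620 in embryo 4 and 21776 in embryo 7. In embryo 2, Nup62 had 6378 counts and Atf5 had 0.

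Xbp1 encodes the factor that IRE1 activates by splicing its mRNA, and lies on chromosome 11 (5520659 to 5525893, plus strand, ENSMUSG00000020484.18). It stood at 184 CPM in embryo 1 (95% interval 160 to 211), 44.4 CPM in embryo 2 and 79.0 CPM in embryo 4, from 211, 730 and 2618 counts. The other 4 embryos had none. In embryo 7, whose total was 17122136, a count of 0 allows up to 0.175 CPM, while Atf4 stood at 38.2 CPM in the same library. All 3 embryos with Xbp1 also had Atf4, and they are among the 4 with most genes counted.

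Asns, which encodes asparagine synthetase and is a textbook ATF4 target, was counted in 2 embryos. It lies on chromosome 6 (7675169 to 7693254, minus strand, ENSMUSG00000029752.12). It stood at 41.4 CPM in embryo 4 from 1370 counts and 1.40 CPM in embryo 2 from 23 counts. Both embryos had Atf4 and Ddit3, and they were the 2 with most genes counted. Embryo 2 had the highest Atf4 level of the 7 and an Asns level 29.6-fold below that of embryo 4. Embryos 1 and 7 had Atf4 and no Asns count, where 3 counts would be 2.62 and 0.175 CPM.

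**Figure D2:**
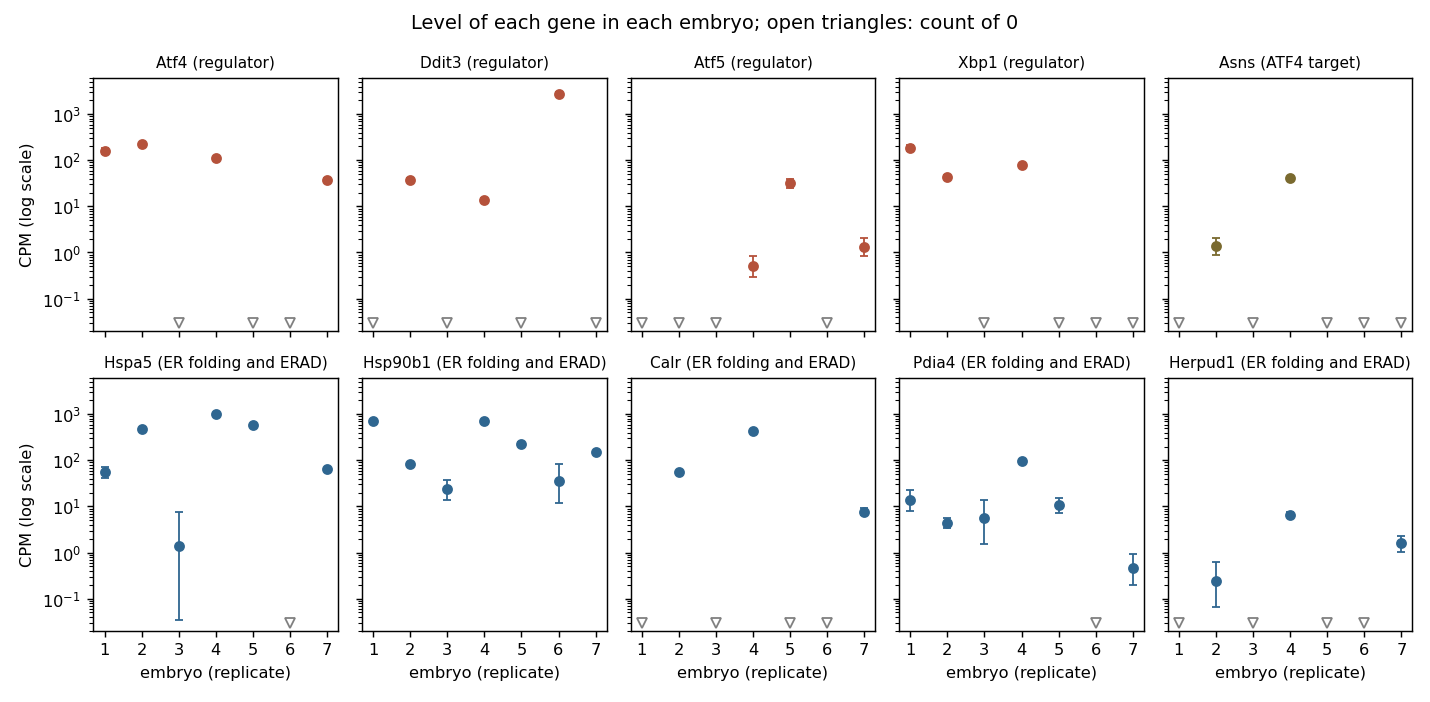
CPM of each of the 10 genes (y axis, log scale) in each of the 7 embryos (x axis); points carry 95% Poisson intervals, and open triangles at the bottom mark a count of 0 and carry no height. Hsp90b1 has a point in every embryo, and the Ddit3 point of embryo 6, at 2800.5 CPM, is the highest in the plot.

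Of the 5 ER genes, 3 were counted in 6 or 7 embryos, while no regulator was counted in more than 4. Of the 11810 genes with a mean CPM of at least 1, 9% were counted in 6 embryos and 3.69% in 7. Those counted in 3 or 4 embryos, as each regulator was, made up 21.3% and 17.9%. Hsp90b1 encodes GRP94, the ER member of the HSP90 family, and lies on chromosome 10 (86690209 to 86705509, minus strand, ENSMUSG00000020048.13). It was the 1 gene of the 10 counted in every embryo, as were 3.69% of the 11810 genes with a mean CPM of at least 1. It stood at 714 CPM in embryo 1, 82.7 in embryo 2, 23.4 in embryo 3, 713 in embryo 4, 228 in embryo 5, 35.8 in embryo 6 and 155 in embryo 7. The highest value was 30.5-fold above the lowest, and those of embryos 3 (17 counts) and 6 (5 counts) had overlapping 95% intervals, 13.6 to 37.5 and 11.6 to 83.6 CPM. Its SD of 2.22 on the log2 CPM scale was among the smaller ones, with 93.0% of the 11810 genes above it. On the opposite strand it shares 415 exonic bases with the pseudogene 1810014B01Rik, which had 211 counts in embryo 4 and 0 elsewhere.

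Hspa5 encodes BiP, the ER chaperone that also holds the unfolded protein sensors inactive, and lies on chromosome 2 (34771970 to 34777547, plus strand, ENSMUSG00000026864.13). It stood at 55.1 CPM in embryo 1, 468 in embryo 2, 1.38 in embryo 3, 1026 in embryo 4, 589 in embryo 5 and 65.5 in embryo 7, with no count in embryo 6. Embryos 2, 4 and 5 were each at least 7.15-fold above the other 4. The value of embryo 3 rests on 1 count (95% interval 0.0349 to 7.68 CPM). The level in embryo 4 was 745-fold above that, a ratio carrying the same counting error. In embryo 4 only 2.53% of the counted genes stood above Hspa5 in CPM per kilobase.

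The balance of the 2 chaperones differed between embryos. Per kilobase of merged exon, Hsp90b1 was 13.6-fold above Hspa5 in embryo 1 (95% counting interval 10.5 to 17.9) and 2.49-fold in embryo 7 (2.32 to 2.67). The ratio was below 1 in embryos 4 (0.729), 5 (0.406) and 2 (0.185). In embryo 3 it was 17.8, from 17 counts against 1, with an interval of 2.79 to 745. No ratio is given for embryo 6, where Hsp90b1 had 5 counts and Hspa5 had 0. Over the 7 embryos the difference in log2 CPM per kilobase, Hsp90b1 minus Hspa5, averaged 1.62 with an SD of 3.26, so its mean was smaller than its spread.

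Calr encodes calreticulin, a calcium-binding chaperone of glycoproteins, and lies on chromosome 8 (84841850 to 84846934, minus strand, ENSMUSG00000003814.8). It stood at 442 CPM in embryo 4 from 14648 counts, 54.6 CPM in embryo 2 from 899 counts and 7.77 CPM in embryo 7 from 133 counts, and had no count in the other 4. Embryo 5, which had Hspa5 at 589 CPM, had no Calr count, where 3 counts would be 1.09 CPM. A processed pseudogene, Calr-ps, lies on chromosome 2 (140955765 to 140956249). Its symbol does not appear in the count table used here, and whether it shares reads with Calr was not tested.

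Pdia4, on chromosome 6 (47796141 to 47813430, minus strand, ENSMUSG00000025823.9), encodes a protein disulfide isomerase of the ER. It was counted in 6 embryos, at 97.4 CPM in embryo 4, 14.0 in embryo 1, 10.9 in embryo 5, 5.51 in embryo 3, 4.44 in embryo 2 and 0.467 in embryo 7. Outside embryo 4, where it had 3227 counts, no library held more than 73. Herpud1, on chromosome 8 (94386438 to 94395377, plus strand, ENSMUSG00000031770.16), encodes an ER membrane protein of ER-associated degradation (ERAD), which returns misfolded proteins to the cytosol for destruction. It was scarce, at 6.67 CPM in embryo 4 from 221 counts, 1.58 CPM in embryo 7 from 27 counts and 0.243 CPM in embryo 2 from 4 counts, with none elsewhere.

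As a set, the 10 genes made up very different amounts of each library. They summed to 1128 CPM in embryo 1, 918 in embryo 2, 30.3 in embryo 3, 2531 in embryo 4, 860 in embryo 5, 2836 in embryo 6 and 270.2 in embryo 7. The 5 ER genes held 90.3% of the set's counts in embryo 4 (95% Clopper-Pearson interval 90.1 to 90.5%), 96.3% in embryo 5, 85.4% in embryo 7, 69.5% in embryo 1 and 66.5% in embryo 2. They held all 22 counts in embryo 3 (84.6 to 100%). In embryo 6 they held 1.26% (0.411 to 2.92%), and Ddit3 held the remaining 98.7%. The ER genes were therefore the larger part in 6 embryos and the smaller part in embryo 6. The leading gene was Hsp90b1 in embryos 1, 3 and 7, Hspa5 in embryos 2, 4 and 5, and Ddit3 in embryo 6.

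**Figure D3:**
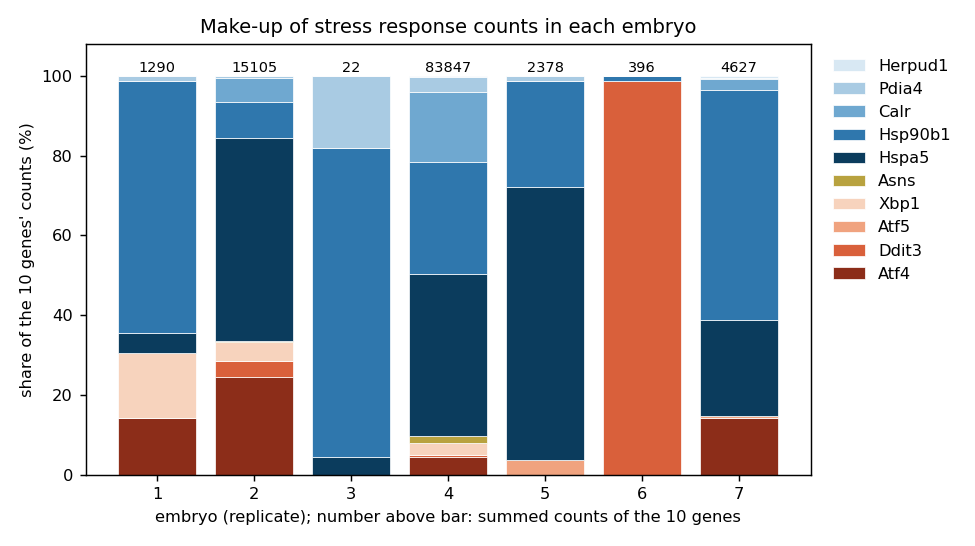
Share of each of the 10 genes in their summed counts (y axis, percent) for each embryo (x axis), with regulators in red tones, Asns in yellow and ER genes in blue tones; the number above a bar is the summed count. Ddit3 takes 98.7% of the bar of embryo 6, which rests on 396 counts, and ER genes take 66.5% or more of every other bar.

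More of these genes had a count in the libraries with more genes counted. All 10 were counted in embryo 4, 9 in embryo 2, 7 in embryo 7, 5 in embryo 1, 4 in embryo 5, 3 in embryo 3 and 2 in embryo 6. Of the 11810 genes with a mean CPM of at least 1, the share with a count was 84.0% in embryo 4, 72.1% in embryo 2, 69.5% in embryo 7, 41.7% in embryo 1, 29.0% in embryo 3, 27.7% in embryo 5 and 14.8% in embryo 6. With every library thinned to 139619 counts, 8 of the 10 were still counted in embryo 4, 6 in embryo 2, 5 in embryo 1, 4 in embryos 5 and 7, 2 in embryo 6 and 1 in embryo 3. At that depth Hsp90b1 was counted in 7 embryos, Hspa5 in 5, Atf4 in 4, Ddit3, Xbp1 and Pdia4 in 3, Calr in 2, and Atf5, Asns and Herpud1 in 1. Thinned counts of Ddit3 were 391 in embryo 6, 3 in embryo 2 and 2 in embryo 4.

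Ordered by mean log2 CPM per kilobase, Hsp90b1 came first at 5.16, followed by Hspa5 at 3.54, Atf4 at 1.87, Pdia4 at 1.14, Ddit3 at 0.97, Xbp1 at -0.02, Calr at -0.09, Atf5 at -1.34, Herpud1 at -1.95 and Asns at -1.96. For each of the 9 neighbouring pairs the mean within-embryo difference was smaller than its SD, so no neighbours in this order differed beyond their spread.

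The median spread of the set was close to that of all genes, while single genes of the set lay toward either end. The SD of log2 CPM over the embryos had a median of 3.86 for the 10 genes and 3.63 for all 11810 genes, and 5 of the 10 lay above 3.63. Ddit3 had the largest SD of the 10, at 5.15, followed by Atf4 at 4.92, Hspa5 at 4.78, Calr at 4.73 and Xbp1 at 4.70. For these 5, 3.66% (Ddit3) to 11.2% (Xbp1) of all genes had a larger SD. For the other 5 it was 71.3% (Asns) to 96.8% (Herpud1, whose SD of 2.06 was the smallest). Herpud1 was counted in 3 embryos, at no more than 6.67 CPM, and Asns in 2, with the rest tied at 0. Their SDs therefore depend on the prior count. At 0.5 in place of 2 they were 2.94 and 3.89, beside a median of 4.49 for all genes. An edgeR quasi-likelihood test asked whether a gene's dispersion was above the trend at its abundance, with Benjamini-Hochberg adjustment over all genes. In it 0 of the 10 genes passed an adjusted p of 0.05, as did 0% of all genes. Without adjustment, 1 of the 10, Ddit3, fell under 0.05 (its adjusted p in edgeR was 0.869), as did 0.576% of all genes, 68 of 11810. This rested on embryo 6 and on the setting. The unadjusted edgeR p of Ddit3 was 0.0455 in the main run and 0.470 without embryo 6. Over the other edgeR settings it ran from 0.0221, scaled by library total only, to 0.475, without embryos 3 and 6. By Dixon's ratio (the gap between an end value and its neighbour over the whole range, critical value 0.568 for 7 values), 1 embryo stood apart on the log2 CPM scale for 2 of the 10, Atf5 and Asns, and for 25.3% of all genes. DESeq2 marked 0 of the 10 and 0 of all genes as dispersion outliers. The coefficient of variation between embryos was 3.00, and at that spread a count of 0 does not show that any gene varied like the others.

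The authors' log2 table, which gives each library the same set of values by quantile normalization, showed the same leading embryo for Ddit3 and Hspa5. Ddit3 stood at 10.55 in embryo 6, 2.20 in embryo 2 and 0.91 in embryo 4, and a count of 0 stood at -2.65. Hspa5 was highest in embryo 4, at 10.32, followed by embryo 2 at 9.57 and embryo 5 at 9.02. For Hsp90b1 the first 2 embryos changed places, with 9.73 in embryo 4 and 9.43 in embryo 1. The leading embryo also changed for Pdia4, to embryo 5 at 5.31, with embryo 4 at 4.94. For Herpud1 it changed to embryo 7 at 0.45, with embryo 4 at -0.27.

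The other genes of the pathway were counted most often in embryos 4, 2 and 7. Of 75 further genes on 5 lists, 74 were in the table and 68 had a mean CPM of at least 1, of which 0 passed the edgeR spread test. Those with a count numbered 65 in embryo 4, 58 in embryo 2, 53 in embryo 7, 36 in embryo 5, 27 in embryo 1, 21 in embryo 3 and 9 in embryo 6. Of all 11810 genes with a mean CPM of at least 1, 84.0%, 72.1%, 69.5%, 27.7%, 41.7%, 29.0% and 14.8% had a count in the same embryos. Embryo 5 thus had more of the pathway genes than embryo 1 and a smaller share of all genes. Canx was the only one of the 74 counted in every embryo. It encodes calnexin, the membrane partner of calreticulin, and ranged from 7.16 CPM in embryo 6, on 1 count, to 532 CPM in embryo 1. Embryos 1 and 5 therefore had calnexin, at 532 and 319 CPM, and no count of Calr.

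The 9 sensor and kinase genes were counted unevenly, 7 of them in embryo 4 and 1 in embryo 5. Mbtps2, a protease that cleaves ATF6, had the highest median of the 9, 23.6 CPM. Next were Eif2ak1, the haem-sensing kinase HRI, at 6.99 CPM and Eif2ak4, the amino acid-sensing kinase GCN2, at 5.25 CPM. Atf6b, a relative of ATF6, reached 142 CPM in embryo 3 and 106 CPM in embryo 2. Embryo 6 had no count of any of the 9, and Eif2ak2, the kinase PKR, had none in any embryo.

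Of the 11 genes of eIF2, its exchange factor eIF2B and the eIF2 phosphatase, all were counted in embryo 4. In embryos 5 and 7 it was 10, in embryo 2 it was 9, in embryo 1 it was 4 and in embryos 3 and 6 it was 3. Eif2b4, a subunit of eIF2B, stood at 2836 CPM in embryo 6 from 396 counts, near the level of Ddit3 in that library, and at 0 to 455 CPM elsewhere. Eif2s2, the beta subunit of eIF2, peaked at 2046 CPM in embryo 4. Ppp1r15a, the stress-induced phosphatase subunit GADD34 and a known target of the ATF4 arm, stood at 221 CPM in embryo 1, 266 in embryo 2, 77.8 in embryo 4 and 134 in embryo 7. Those are the 4 embryos that had Atf4, and also the 4 with the largest share of all genes counted, from 41.7% to 84.0%. A link between the levels of Ppp1r15a and Atf4 was not tested. It stood at 8.68 CPM in embryo 5 and had no count in embryos 3 and 6.

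Targets of the ATF4 arm did not share 1 pattern. Phgdh, the first enzyme of serine synthesis, stood at 1288 CPM in embryo 4, 878 in embryo 5 and 235 in embryo 2 and at 0 elsewhere. Mthfd2, a mitochondrial folate enzyme, was highest in embryo 5, at 829 CPM, and Sesn2, which restrains mTORC1, in embryo 2, at 563 CPM. Sesn2 had 356 counts (491 CPM) in embryo 3, which had none of Atf4, Ddit3 and Atf5. The alanyl-tRNA synthetase Aars ranged from 0 in embryo 6 to 332 CPM in embryo 5. Nupr1, Vldlr and Stc2 had no count in any embryo.

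Further ER folding and ERAD genes also peaked in different embryos. Dnajb9 (ERdj4), a BiP cochaperone, was highest in embryo 1, at 1146 CPM, and Dnajc3 (p58IPK), another BiP cochaperone, in embryo 3, at 679 CPM. Of the ERAD genes, Edem1, which selects misfolded glycoproteins, was at 675 CPM in embryo 1 and at most 16.5 CPM elsewhere. Its relative Edem2 was highest in embryo 3, at 500.2 CPM, as was Sel1l, a part of the ERAD membrane complex, at 415 CPM. Nploc4, a cofactor of the ATPase p97, ranged from 0 in embryos 3 and 6 to 259 CPM in embryo 1.

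**Figure D4:**
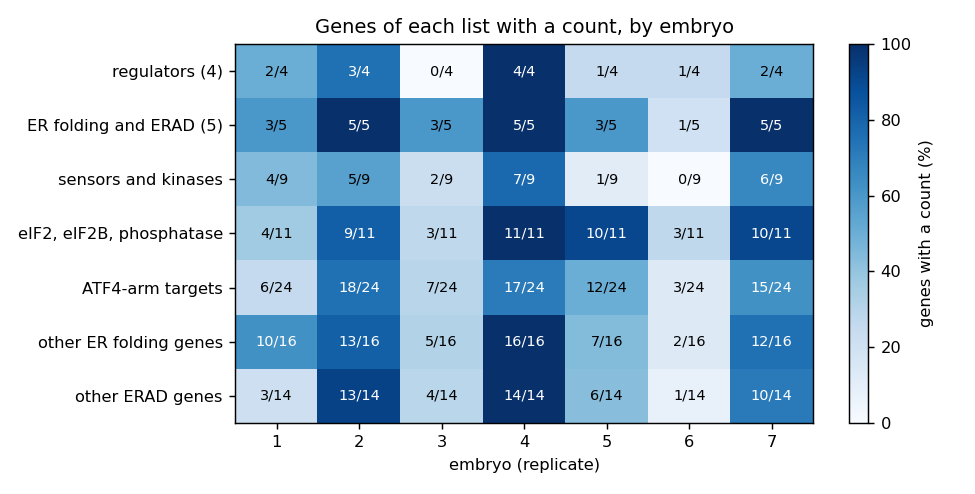
Number of genes with a count out of those in the table for 7 lists (rows) in each embryo (columns), with the colour giving the percent. Embryo 4 has a count for every gene in 5 of the 7 lists, and embryo 6 has none of the 9 sensors and kinases.

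The genes with the profile most like Atf4, by Pearson's r of log2 CPM over the 7 embryos, were Ndufa4, Rcan1 and 2610507B11Rik (r from 0.9996 to 0.9998, Spearman's rho 0.96 or above). Ndufa4, a respiratory chain protein, stood at 553, 786, 359 and 81.7 CPM in embryos 1, 2, 4 and 7 and at 0 in the others. Closest to Hsp90b1 were Glrx3, Psap and Obfc2a (r from 0.971 to 0.974, rho 0.955 for each), none of which had a count in embryos 3 or 6. These are the highest of 11809 values of r for each gene, they share libraries and therefore their zeros, and they are given as a description.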

How the data were processed

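Polyadenylated RNA of 7 single embryos was measured with SMART-Seq v4 cDNA and Nextera XT libraries, per the labels' protocols. HISAT2 2.0.5, featureCounts 1.5.0-p2 of Subread, limma and GRCm38 are named in the submitters' processing notes, without roles. No source used here gives the annotation or the strand setting. The deposited counts are whole numbers per gene symbol, not normalized. The deposited log2 values equal quantile-normalized log2 CPM recomputed here to within 4.97e-14.

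Printed CPM divide counts by the library total, without TMM factors. CPM per kilobase used merged exons of GENCODE M21 (GRCm38), which matched 22468 of 26586 symbols; a symbol with several entries took the longest. Log2 CPM used TMM factors and a prior count of 2 in edgeR 4.0.16 (R 4.3.3), for the 11810 genes with a mean CPM of at least 1. The spread test was a one-sided F test of each gene's quasi-likelihood dispersion against the prior at its abundance. A run of it on simulated data does not show that it could find a gene at the spread of these libraries. DESeq2 1.42.0, limma 3.58.1 on the authors' table, other scalings, filters, thinning and left-out embryos were alternatives. Promoters are RefSeq's; no protein sequences were used.

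Nothing in the labels says that the embryos came from separate litters, so p-values reflect only how these 7 samples differ, which may be technical variation. The 10 genes, the lists and the tests were chosen with earlier results of these data known. Named genes were the 10, the 3 genes most like the leading regulator and the leading ER gene, and of each further pathway list the 3 genes of highest median CPM and the gene of highest CPM in any embryo; marker genes, and genes at 0 in every embryo, were named where a result touched them. Genes overlapping Ddit3, Atf5 and Hsp90b1 were named after their values were seen.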

Additional observations from a re-analysis of the deposited data

Results flagged for a closer look

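Within a group of 7, 2 of the 10 genes had 1 embryo standing apart on the log2 CPM scale by Dixon's ratio, the gap to the next embryo divided by the whole range, against a critical value of 0.568. The same holds for 25.3% of all 11810 genes, many of which have tied values at a count of 0, so the share among the 10 is near the background; in groups without such ties chance flags about 1 in 20. Atf5 was high in embryo 5, with a ratio of 0.624. Asns was high in embryo 4, with a ratio of 0.614. Ddit3 in embryo 6 did not reach the critical value, with a ratio of 0.404.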

How the results depend on the processing

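No paired analysis was possible because the labels give 1 group. The number of genes past the spread test was 0 under each alternative run, for all genes tested and for those of the 10 that were tested. Those were 7 at a mean CPM of at least 10, 8 without embryo 4, 9 without embryo 5 and 10 otherwise. The run on simulated data did not show that the test could find a gene at this spread. The counts of 0 are therefore no evidence of a stable result. The median SD of log2 CPM of the 10 genes was 3.86 and ran from 3.51 to 4.85 with 1 embryo left out, the upper value over the 9 genes that passed the filter without embryo 5; it was 1.76 after thinning to 139619 counts, where the prior count weighs more, beside 1.22 for all genes. The number counted in every embryo, 1, ran from 1 to 3 with 1 embryo left out, and was 3 (Hspa5, Hsp90b1 and Pdia4) without embryo 6 and without embryos 3 and 6, the 2 libraries of lowest total. Per kilobase instead of per count, the share of ER genes in the set was 61.1% in embryo 1, 53.7% in embryo 2, 86.7% in embryo 4, 92.6% in embryo 5 and 77.3% in embryo 7, in each case still the larger part. Of 117 recomputed mean levels of single genes, 114 moved by less than 1 SD; the other 3, Atf5, Asns and Herpud1, were higher after thinning, at 4.11, 4.18 and 3.90 log2 CPM. Depth limits the zeros of embryos 3 and 6 most. Embryo 5 had fewer genes counted than embryo 3, 3388 against 3486, from a larger total, 2764409 against 725729. After thinning it was 2338 against 2811. Whether the zeros of embryo 5 are absences was not tested.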
